A study of Homo sapiens with 6 samples.

Results

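The cytosolic sulfotransferases and the synthases of their sulfate donor were followed in Hep3B, an established human hepatocellular carcinoma cell line. The 10 genes, out of 29908 in the deposited table, were SULT2A1, SULT2B1, SULT1A1, SULT1A2, SULT1B1, SULT1C2, SULT1C4, SULT1E1, PAPSS1 and PAPSS2, found by their Ensembl identifiers in GENCODE release 29. The group was selected on measured values, because SULT2A1 had the largest rise of any protein-coding gene and SULT1C2 also rose; the other 8 genes joined as relatives and not by their own change. The values of SULT2A1 and SULT1C2 between the groups are therefore a description and carry no test.

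In Hep3B-KD cells a lentivirus expressed an shRNA (short hairpin RNA) targeting DAGLA, whose enzyme, a diacylglycerol lipase, makes the lipid messenger 2-arachidonoylglycerol. Hep3B-Con cells were infected with the control lentivirus, described in the series as an empty vector. Both were selected with puromycin and grown with foetal bovine serum, in DMEM by the sample records and in MEM-alpha by the paper. A single hairpin in a single cell line was sequenced, so the hairpin and the loss of DAGLA cannot be told apart. There were 3 libraries per group, called biological replicates in the series record without saying whether they came from separate infections or cultures, so p-values measure the spread between these samples. In bulk RNA, fewer cells with a transcript and less transcript per cell cannot be told apart.

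Cytosolic sulfotransferases move a sulfonate group from the donor PAPS (3'-phosphoadenosine 5'-phosphosulfate) onto hormones, bile acids, neurotransmitters and drugs, which makes most of them more soluble and easier to excrete. PAPS itself is made from ATP and inorganic sulfate by the synthases PAPSS1 and PAPSS2. In liver this is a main route of phase II conjugation beside glucuronidation, and SULT2A1, the enzyme that sulfates dehydroepiandrosterone and bile acids, is known as an abundant sulfotransferase of adult liver and adrenal cortex.

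Depth was even, with 16644962 to 17572714 reads per Hep3B-Con library and 15861039 to 16593115 per Hep3B-KD library. DAGLA was at 9.42, 9.40 and 9.02 FPKM in Hep3B-Con and at 4.62, 4.46 and 4.78 FPKM in Hep3B-KD, a 2.01-fold lower level without overlap. FPKM is the number of reads of a gene scaled to the length of its exons and to the reads of the library. Log2 fold changes are Hep3B-KD against Hep3B-Con on log2(FPKM + 0.1), which understates the change of low genes, and p-values come from limma, adjusted after Benjamini-Hochberg across the 14221 genes whose mean reached 0.5 FPKM. The median log2 fold change of these genes was 0.11. Values refitted after each library was centred on its median log ratio to the gene means are called centred.

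The start regions of the 3 genes with a change of at least 2-fold are shown first, as RefSeq gives them for build GRCh38.p14, from 250 bases before to 50 bases after the start of transcription, 5' to 3' on the strand of the gene. SULT2A1 lies on the minus strand at chr19:47886266-47886565, and SULT1C2 and SULT1C4 lie on the plus strand at chr2:108288645-108288944 and chr2:108377704-108378003. Capitals mark GATAA, a core bound by GATA factors, and AGGTCA and GGGTCA, cores bound by nuclear receptors, on either strand.
SULT2A1: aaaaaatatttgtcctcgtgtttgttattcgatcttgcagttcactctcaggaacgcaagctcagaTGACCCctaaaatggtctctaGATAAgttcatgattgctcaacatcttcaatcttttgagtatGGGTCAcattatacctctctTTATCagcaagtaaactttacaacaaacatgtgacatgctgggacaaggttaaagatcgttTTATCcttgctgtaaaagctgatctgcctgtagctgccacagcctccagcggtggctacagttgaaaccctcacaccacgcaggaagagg
SULT1C2: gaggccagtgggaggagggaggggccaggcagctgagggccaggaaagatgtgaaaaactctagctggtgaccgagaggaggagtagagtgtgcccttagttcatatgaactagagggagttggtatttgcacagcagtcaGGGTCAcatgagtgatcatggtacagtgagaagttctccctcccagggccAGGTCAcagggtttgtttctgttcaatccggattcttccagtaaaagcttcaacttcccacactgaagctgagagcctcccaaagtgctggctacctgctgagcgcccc
SULT1C4: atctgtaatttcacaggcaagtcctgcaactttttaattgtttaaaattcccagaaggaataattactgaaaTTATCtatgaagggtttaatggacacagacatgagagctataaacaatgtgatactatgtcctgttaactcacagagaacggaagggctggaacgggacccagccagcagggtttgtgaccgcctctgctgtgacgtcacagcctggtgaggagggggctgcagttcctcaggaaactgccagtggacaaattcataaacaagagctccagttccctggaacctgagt

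The SULT2A1 window held GATAA 3 times, first bases at -163, -101 and -40 from the start site, and GGGTCA 2 times, at -184 and -121. Of 35116 RefSeq promoters of this length, 0.891% held GATAA 3 or more times, 22.7% held it at least once, and 1.3% held GGGTCA 2 or more times. These shares are over promoters of any base composition and are not matched to the SULT2A1 window, which had 42.7% G and C. The SULT1C2 window held AGGTCA at -59, found in 13.8% of promoters, and GGGTCA at -109, found in 14.1%. The SULT1C4 window held GATAA at -178 and neither receptor core. Also searched but not marked were GTTAAT, a core of HNF1 factors, TATAAA, the TATA box, and GGAATG, a core of TEAD factors. Of these the 3 windows held only TATAAA, in SULT1C4 at -140, found in 11.5% of promoters. These positions count from the RefSeq start sites, which differ from the gene starts in GENCODE. In GENCODE, SULT1C2 starts at base 108288639, so its whole window and both its motifs lie inside the annotated gene. SULT2A1, on the minus strand, starts at base 47886397, so its GATAA at -40 lies inside the gene and its other marked motifs lie outside. SULT1C4 starts at base 108377911, within its window, and its GATAA lies outside the gene. The marked motifs do not overlap each other, were chosen with the sequences in view, and describe letters only. RefSeq promoters were matched for 7 of the 10 genes; those of SULT1A1, SULT1A2 and PAPSS2 were not used here.

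In Hep3B-Con the members spanned a wide range of level per exon length. SULT1C4, known mainly from foetal tissues, was the highest at 32.1 ± 1.11 FPKM (SD, n = 3), followed by PAPSS1 at 11.7 ± 0.812 FPKM, PAPSS2 at 7.49 ± 0.366 FPKM and SULT1A1 at 2.93 ± 0.0584 FPKM. SULT1A2 (2.41 ± 0.392 FPKM), SULT2A1 (2.29 ± 0.152 FPKM) and SULT1E1 (2.23 ± 0.370 FPKM) overlapped in their libraries, and SULT1E1 also overlapped with SULT1C2 at 1.90 ± 0.0345 FPKM. SULT1B1 at 0.196 ± 0.0712 FPKM and SULT2B1 at 0.0203 ± 0.0204 FPKM closed the order. In Hep3B-KD the order opened with SULT2A1, PAPSS1, SULT1C4, PAPSS2 and SULT1C2, without overlap between neighbours, and then came SULT1A2 and SULT1A1, which overlapped, SULT1E1, SULT1B1 and SULT2B1.

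**Figure D1:**
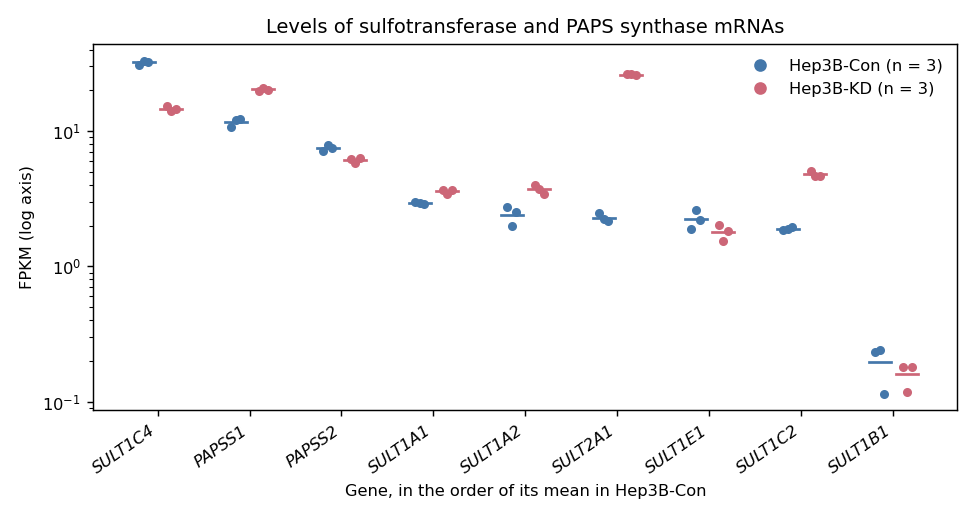
FPKM (log axis) of 9 of the 10 genes in 3 Hep3B-Con and 3 Hep3B-KD libraries, in the order of their Hep3B-Con mean; points are libraries and lines are group means. SULT2A1 goes from sixth place to first, at 25.8 to 26.3 FPKM, while SULT1C4 drops to 14.0 to 15.4 FPKM; SULT2B1, at 0 in several libraries, is not drawn.

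The place of SULT1A1 depended on the length used. The deposited values divide by the union of all annotated exons, 8909 bases for SULT1A1 and 8399 bases for SULT1C2, whereas their longest coding transcripts have 1876 and 2828 bases. Per base of the longest coding transcript, the same reads gave SULT1A1 13.9 FPKM in Hep3B-Con and 17.1 FPKM in Hep3B-KD, values that overstate the coding level if some reads fell on its other exons. On that scale SULT1C4 was still first in Hep3B-Con, at 49.98 FPKM, and SULT2A1, whose 2 lengths are the same, was still first in the sulfotransferases of Hep3B-KD at 26.1 FPKM, beside 22.8 FPKM for SULT1C4.

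Of the 10 members, 8 passed the filter of 0.5 FPKM and 7 of these had an adjusted p under 0.05, 5 higher and 2 lower in Hep3B-KD, where 59.9% of all genes tested passed. With a fold change of at least 2 added, 3 members passed, beside 8.83% of all genes tested. These counts include the 2 genes that the choice rests on and nothing is read from them. The median log2 fold change of the 8 was 0.45, beside 0.11 over all genes tested.

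Among the hydroxysteroid sulfotransferases (SULT2), SULT2A1 (ENSG00000105398, chr19:47870466-47886397, minus strand) had 2.46, 2.23 and 2.18 FPKM in Hep3B-Con and 26.2, 26.3 and 25.8 FPKM in Hep3B-KD. All 3 Hep3B-KD libraries were far above all 3 Hep3B-Con libraries, and the spread within each group was small. These values rest on 72 to 86 reads per Hep3B-Con library and 827 to 852 reads per Hep3B-KD library. The mean was 11.4-fold higher in Hep3B-KD, a log2 fold change of 3.46 with a standard error of 0.05 (centred 3.35), the first of 11301 protein-coding genes tested and the tenth of genes of any type. The next protein-coding gene, CXCL10, an interferon-induced chemokine, had 2.94.

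SULT2B1, which sulfates cholesterol and pregnenolone and is known from skin, had 1, 2 and 0 reads in Hep3B-Con and 0, 0 and 1 in Hep3B-KD. All libraries were at or under a floor of 3 reads, so no fold is given. It lies 666 kb from SULT2A1, on the plus strand at chr19:48552075-48599425. The floor covers counting error only, since reads may be copies of one molecule, whereas the 95% intervals come from the spread between libraries in the limma fit.

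The phenol sulfotransferases of the SULT1C subfamily, 68.0 kb apart on chromosome 2, moved in opposite directions. SULT1C2 (ENSG00000198203, chr2:108288639-108309915, plus strand), which acts on small phenols, had 1.87, 1.90 and 1.94 FPKM in Hep3B-Con and 5.10, 4.68 and 4.63 FPKM in Hep3B-KD, from 271 to 277 and 631 to 679 reads. The groups did not overlap, and the mean was 2.52-fold higher in Hep3B-KD (log2 fold change 1.29 with a standard error of 0.06, centred 1.19), place 224 among the protein-coding rises.

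SULT1C4 (ENSG00000198075, chr2:108377911-108388057, plus strand) had 30.9, 33.1 and 32.2 FPKM in Hep3B-Con and 15.4, 14.0 and 14.6 FPKM in Hep3B-KD, from 1554 to 1668 and 651 to 707 reads. Every Hep3B-KD library was below every Hep3B-Con library. The mean was 2.19-fold lower (log2 fold change -1.13, 95% interval -1.23 to -1.02, adjusted p = 3.18e-06, centred -1.23). The ratio of SULT1C4 to SULT1C2 went from 16.9 ± 0.509 to 3.05 ± 0.0828. SULT1C3, another gene of the subfamily, had 0 reads in 5 libraries and 4 reads in Hep3B-KD replicate 1.

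The SULT1A enzymes, which sulfate simple phenols and many drugs, were slightly higher in Hep3B-KD. SULT1A1 (ENSG00000196502, chr16:28605196-28623625, minus strand) had 2.99, 2.93 and 2.87 FPKM in Hep3B-Con and 3.69, 3.44 and 3.67 FPKM in Hep3B-KD, and SULT1A2 (ENSG00000197165, chr16:28591943-28597109, minus strand) had 2.73, 1.97 and 2.54 FPKM and 4.02, 3.72 and 3.44 FPKM. Neither gene's groups overlapped. SULT1A1 rose by 0.29 on the log2 scale (95% interval 0.15 to 0.42, adjusted p = 0.00415, centred 0.19), a call lost under quantile normalization (0.10, adjusted p = 0.166). SULT1A2 rose by 0.62 (0.31 to 0.92, adjusted p = 0.00534). These genes lie 8.09 kb apart and are near-identical in sequence to each other and to SULT1A3 and SULT1A4, so how reads were split among them is uncertain. SULT1A1 also shares 471 exon bases with the pseudogene AC020765.5.

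SULT1E1 (ENSG00000109193, chr4:69841212-69860152, minus strand), the oestrogen sulfotransferase, had 1.88, 2.61 and 2.18 FPKM in Hep3B-Con and 2.02, 1.55 and 1.82 FPKM in Hep3B-KD. The groups overlapped, and the log2 fold change of -0.29 had an interval of -0.65 to 0.06 (adjusted p = 0.135), at 52 to 95 reads per library. Under quantile normalization it was -0.53 (adjusted p = 0.0201), and over all alternatives the adjusted p ranged up to 0.353. Without Hep3B-Con replicate 2 it was -0.17 and without Hep3B-KD replicate 2 it was -0.19. SULT1E1 shares 503 exon bases on the same strand with the protein-coding gene AC108941.2. SULT1B1 (ENSG00000173597, chr4:69721162-69787961, minus strand), which acts on thyroid hormones, lay under the filter at 0.196 ± 0.0712 and 0.160 ± 0.0356 FPKM, from 14 to 31 reads, and was not tested.

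The PAPS synthases also moved apart. PAPSS1 (ENSG00000138801, chr4:107590276-107720452, minus strand) had 10.8, 11.98 and 12.3 FPKM in Hep3B-Con and 19.9, 20.7 and 20.2 FPKM in Hep3B-KD. PAPSS2 (ENSG00000198682, chr10:87659613-87747705, plus strand), mutated in a skeletal dysplasia and known as the synthase that supports dehydroepiandrosterone sulfation, had 7.15, 7.88 and 7.43 FPKM in Hep3B-Con and 6.24, 5.76 and 6.29 FPKM in Hep3B-KD. Neither gene's groups overlapped.

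PAPSS1 rose 1.73-fold (log2 fold change 0.79, 95% interval 0.66 to 0.92, adjusted p = 2.87e-05), and PAPSS2 was 1.23-fold lower (-0.29, -0.42 to -0.16, adjusted p = 0.00367). Their ratio went from 1.56 ± 0.0843 to 3.33 ± 0.224. Their summed level went from 19.2 ± 1.08 to 26.4 ± 0.199 FPKM, with all of the gain from PAPSS1. PAPSS2 shares 146 exon bases with an antisense gene, and the sources do not state whether counting used strand.

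The summed level of the 8 sulfotransferases was 44.1 ± 0.974 FPKM in Hep3B-Con and 54.9 ± 1.56 FPKM in Hep3B-KD. The sum differed by less than SULT2A1 or SULT1C4 alone. SULT1C4 held 72.8% ± 0.947 of the sum in Hep3B-Con and 26.7% ± 0.593 in Hep3B-KD, and SULT2A1 held 5.20% ± 0.444 and 47.6% ± 1.26. SULT1C2 went from 4.32% ± 0.0962 to 8.75% ± 0.231, while SULT1A1 stayed near 6.65% and 6.57%. Per base of the longest coding transcript, a scale chosen after seeing the data, SULT2A1 held 2.96% and 30.1%, SULT1C4 64.5% and 26.3%, SULT1C2 7.3% and 16.4%, and SULT1A1 18.0% and 19.7%. The sum thus passed from one led by SULT1C4 to one led by SULT2A1 on both scales. Because SULT2A1 chose the set, this shift is a description.

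The tested genes of sulfate metabolism outside the members had log2 fold changes from -0.91 to 0.89. Genes under the filter are not in this range. Among them ARSG went from 0.374 to 0.141 FPKM and GAL3ST3 from 0.0937 to 0.275 FPKM, without a test. Over 5 lists (other cytosolic sulfotransferases, sulfate and PAPS transport, sulfur amino acid oxidation, sulfatases and Golgi sulfotransferases), 45 of 77 listed genes were tested, 16 rose and 12 fell, and 0 of them reached a 2-fold change. Of the transport list, 5 of 7 genes rose, among them SLC35B3, a Golgi PAPS carrier, by 0.40 on the log2 scale and the sulfate carriers SLC26A11 and SLC26A1 by 0.30 each, and 1 fell, the more abundant PAPS carrier SLC35B2 (-0.11, from 63.1 to 58.7 FPKM). BPNT1, which breaks down the used donor, rose by 0.15. Of the 4 other cytosolic sulfotransferases in the table none passed the filter; the highest, SULT1A3, had at most 0.340 FPKM.

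In the oxidation of sulfur amino acids to sulfate, 2 of 8 genes rose and 4 fell. SUOX, the sulfite oxidase that makes sulfate, rose by 0.50, and CSAD, which leads to taurine, by 0.57. GOT1, the cytosolic aspartate aminotransferase, fell by 0.91 on the log2 scale, and MPST, a sulfurtransferase, fell by 0.46. Of 11 sulfatases and activators, which remove sulfate, 1 rose and 4 fell, led by IDS (-0.68) and ARSB (-0.58), while the steroid sulfatase STS, which reverses steroid sulfation, had -0.13 (adjusted p = 0.380). Of 19 Golgi sulfotransferases, which sulfate sugars and tyrosines, 8 rose, led by GAL3ST1 (0.89) and HS6ST2 (0.87), and 3 fell, led by CHST10 (-0.82) and HS2ST1 (-0.74).

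Other conjugating enzymes of liver also went both ways, with 9 of 23 higher and 7 lower. UGT1A1, the bilirubin glucuronosyltransferase, fell from 2.51 to 0.772 FPKM (log2 fold change -1.58, adjusted p = 8.75e-05); it shares exons with other UGT1A genes, which makes its count uncertain. Of other glucuronosyltransferases, UGT2A3 rose by 0.75 and UGT2B4 fell by 0.67 on the log2 scale. The glutathione transferases GSTA4 and GSTM4 rose by 1.01 and 0.89 and the N-acetyltransferase NAT2 by 0.99.

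Genes that make the substrates of SULT2A1 were followed with the carriers of its products. Of 16 tested steroid and bile acid enzymes 9 rose and 2 fell. HSD17B6 rose from 0.254 to 0.889 FPKM and AKR1D1, the bile acid 5-beta-reductase, from 0.434 to 1.24 FPKM (adjusted p = 0.000776), while CYP7B1, HSD3B7 and CYP27A1, enzymes of bile acid synthesis, rose by 0.62, 0.53 and 0.48. CYP17A1, which makes dehydroepiandrosterone, had 0 to 2 reads per library, and so did CYP7A1, the rate-limiting enzyme of classical bile acid synthesis. Of 8 carriers of steroid sulfates and bile acids, 3 rose and 4 fell. SLC51B, a subunit of the bile acid exporter, fell from 2.35 to 0.484 FPKM (log2 fold change -2.21), and SLCO2B1, an uptake carrier of steroid sulfates, rose from 0.459 to 1.98 FPKM (1.90).

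Transcription factors described at SULT promoters were listed from general knowledge. Of 24 tested, 9 rose, 10 fell and 5 did not pass. NR1H4, the bile acid receptor FXR, rose from 3.40 to 8.20 FPKM (1.24), GATA6 from 3.03 to 7.09 FPKM (1.20), RORA from 0.360 to 0.828 FPKM (1.02) and GATA4 from 20.3 to 39.3 FPKM (0.95). CEBPA fell from 33.1 to 15.3 FPKM (-1.11), the receptor NR1I3 (CAR) had -0.58 and HNF4A -0.35. NR1I2, the xenobiotic receptor PXR, had 6 reads in Hep3B-Con replicate 1 and at most 1 in any other library. Whether any of these levels bears on the members was not tested.

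The genes around SULT2A1 moved in both directions or did not pass the test. Within 500 kb of SULT2A1, 14 of 31 genes in the table passed the filter. Of these 5 rose, 4 fell and 5 did not pass, with log2 fold changes from -1.45 to 0.62. The nearest tested gene, SELENOW at 85.8 kb, had -0.09 (adjusted p = 0.175). NOP53 at 113 kb and EHD2 at 127 kb fell by 1.25 and 1.45 on the log2 scale, opposite to SULT2A1, and ZSWIM9 at 284 kb had the largest rise at 0.62.

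Within 500 kb of SULT1C2, 5 genes that are no members were tested. Of these 2 rose, as SULT1C2 did, 0 fell and 3 did not pass. RANBP2 at 410 kb rose by 1.14 and CCDC138 at 477 kb by 0.38. GCC2 (0.19, adjusted p = 0.243) and LIMS1 (0.04, adjusted p = 0.429), the nearest tested protein-coding genes beyond SULT1C4, did not pass.

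The protein-coding genes most like SULT2A1 over the 6 libraries, by the root mean square difference of log2 values less the Hep3B-Con mean, were TRIM50 (0.472), APOBEC2 (0.543), FAM3B (0.613), MAF (0.624) and IHH (0.635). Each rose, to 7.10, 1.67, 1.57, 4.19 and 2.96 FPKM. Their log2 fold changes lay between 2.58 and 2.83, with only 3 to 4 reads per Hep3B-Con library for APOBEC2 and 7 to 12 for FAM3B. This measure turns mostly on the size of the change, so a large rise was built in. SULT2A1 was chosen as the largest protein-coding rise, so a smaller change in each of them was fixed too. None was a close match, but the same choice set SULT2A1 apart from all other protein-coding genes, so nothing is read from that.

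Markers of cell type moved with these results, and their part in them was not tested. Of 14 tested hepatocyte markers, 10 rose and 4 fell, and their sum went from 5957 to 6077 FPKM in Hep3B-Con to 9045 to 9186 FPKM in Hep3B-KD, with ALB from 2042 to 3315 FPKM. HPX and APOH had the largest rises (1.52 and 1.33), FGA and FGB fell (-1.23 and -0.96), and HP stayed at or under 0.150 FPKM. Of 5 foetal liver markers 4 rose, led by IGF2 (1.31) and GPC3 (1.16), and DLK1 fell (sums 1384 to 1421 and 2009 to 2031 FPKM). Of 4 biliary markers 3 rose and KRT7 fell by 1.47 on the log2 scale (sums 272.9 to 320.8 and 351.5 to 396.1 FPKM), and 3 of 3 tested stromal markers fell, led by COL1A1 (-1.20) and LUM (-0.86) (sums 9.28 to 10.2 and 5.48 to 5.96 FPKM). Neither of the 2 tested leukocyte markers passed (sum 2.83 to 4.83 FPKM over all libraries). Endothelial markers summed to at most 0.385 FPKM and adrenocortical markers, from the other main tissue of SULT2A1, to at most 0.136 FPKM.

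The hairpin's guide strand was taken as the reverse complement of the target that the study lists. The match to its bases 2 to 8, GCCTTCA, was found in the longest 3' untranslated region of 0 of the 10 members in GENCODE release 29. That says only that these letters are not in those windows.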

How the data were processed

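Messenger RNA of 3 Hep3B-Con and 3 Hep3B-KD samples was sequenced, and groups and replicate numbers were taken from the sample titles. The authors deposited FPKM values in 1 table of 29908 genes. The submitters' processing notes name TopHat2 2.0.12, Bowtie2 2.0.6 and build GRCh37; the counter is not given in the sources used here. The table holds no coordinates, so coordinates are those of GENCODE release 29 (GRCh38), in which all 29908 identifiers were found. With its exon lengths, 100% of values gave reads within 0.01 of a whole number. Depth was 15861039 to 17572714 reads.

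Values were tested as log2(FPKM + 0.1) with limma 3.58.1 (lmFit, eBayes with a trend) in R 4.3.3 over the 14221 genes whose mean reached 0.5 FPKM, with Benjamini-Hochberg adjustment, and the fit was tested on simulated reads. Calls needed an adjusted p under 0.05. Tables were handled with pandas 2.3.3 in Python 3.11.15. The alternatives were other filters, pseudocounts and scalings, no trend, a replicate block, voom on the recovered reads, and each library left out. The members, the lists and the tests were chosen with earlier results of these data known. Named were all members, the largest called changes of each list, other listed genes that bear on the members or on the labelled cell type, expressed neighbours, the next protein-coding rise and the 5 genes most like SULT2A1.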

Additional observations from a re-analysis of the deposited data

How the results depend on the processing

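No direction of a tested member turned under any alternative run. A pseudocount of 1 lowered the log2 fold change of SULT2A1 to 3.04 and of SULT1C2 to 1.0, centring on the median gave 3.35 and 1.19, and quantile normalization 3.38 and 1.10. Quantile normalization ended the call of SULT1A1 (0.10, adjusted p = 0.166) and called SULT1E1 (-0.53, adjusted p = 0.0201). With a pseudocount of 1, 503 genes instead of 1256 were called with a fold change of at least 2. Leaving out each library in turn gave 3.42 to 3.51 for SULT2A1, 1.25 to 1.32 for SULT1C2 and -1.16 to -1.09 for SULT1C4. The ranges were 0.27 to 0.32 for SULT1A1, 0.49 to 0.71 for SULT1A2 and -0.40 to -0.17 for SULT1E1 (adjusted p 0.0628 to 0.353). They were 0.73 to 0.83 for PAPSS1 and -0.32 to -0.25 for PAPSS2. In these runs 7 members were called each time, beside 7801 to 7915 of all genes tested. The 7 include SULT2A1 and SULT1C2, on which the choice rests, so nothing is read from this count. Same-numbered samples did not deviate together (correlations -0.0656 to -0.0011, beside -0.0356 to 0.0491 for other numbers). That gives no sign of pairing but cannot show whether the samples were prepared in pairs. With the replicate block 7919 genes were called instead of 8521, and 7 members. Recounted per coding transcript, an alternative added after seeing the data, the share of SULT2A1 in Hep3B-KD was 30.1% instead of 47.6%. Depth limits SULT2B1 and SULT1B1, at 31 reads or fewer per library.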
